A study of Rattus norvegicus with 23 samples.

Results

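The comparison set the ligament of left lower first molars from experimental rats against that of left lower first molars from control rats at 31 days of age. It held 5 of the series' 23 arrays, chosen by the labels alone: the left molars of 2 experimental animals, E1 and E3, and of 3 control animals, C1, C2 and C3, numbered as in the sample titles. The study measured RNA levels with whole-transcript arrays in periodontal ligament scraped from the roots of extracted first molars of the lower jaw. The 12 animals were male rats of the Wistar strain, aged 4 weeks when the study began. The series title speaks of unopposed molars, that is, molars that lack a tooth to bite against, and the labels call the animals experimental or control without saying which side lost its antagonist. No allele, drug or other agent is named for either group, and both sides of an animal were sampled, except that the experimental animal E2 has a right array only. Right molars of the same age (3 experimental and 3 control arrays at 31 days) and left molars at 43 days (3 and 3 arrays, other animals) serve below to show where the left molars at 31 days differed. The ligament was scraped as tissue, so each array holds the RNA of several cell types, and fewer cells of a type cannot be told apart from less of its RNA per cell.

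The periodontal ligament is the connective tissue that ties the tooth root to its socket. Fibroblasts lay down and renew its collagen bundles, osteoblasts and cementoblasts line the bone and the root, osteoclasts resorb the socket wall, and the tissue is crossed by a dense plexus of small vessels that lies close to the bone. Endothelial cells are kept by vascular endothelial growth factor, angiopoietin and related ligands acting on receptor kinases such as Flt1 and Tek, and they recruit pericytes through platelet-derived growth factor B. Genes that characterise the ligament were at high levels in all 5 arrays: Aspn, which encodes the small proteoglycan asporin, lay between 10.17 and 12.38, and Col1a1, a chain of type I collagen, between 13.28 and 13.84. All levels and differences are on a log2 scale, where a difference of 1 is a factor of 2, and a difference is experimental minus control from the limma fit unless another comparison is named.

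Flt1, Erg, Nos3 and Adgrl4 belong to the endothelial list, all of whose tested genes lay lower in the experimental arrays, so the 250 bases upstream of their start sites are shown, from the RefSeq annotation of the rat assembly GRCr8. Capitals mark each match to AGGAAG, a core sequence of ETS transcription factors such as Erg, or to its reverse complement CTTCCT. Flt1 lies on the plus strand (chr12:12333180-12333429) and holds 2 matches, 90 and 166 bases from the start. Erg lies on the minus strand (chr11:48251567-48251816) with 1 match at 75 bases, Nos3 on the minus strand (chr4:11706582-11706831) with 1 match at 48 bases, and Adgrl4 on the plus strand (chr2:243014689-243014938) with 0.
Flt1: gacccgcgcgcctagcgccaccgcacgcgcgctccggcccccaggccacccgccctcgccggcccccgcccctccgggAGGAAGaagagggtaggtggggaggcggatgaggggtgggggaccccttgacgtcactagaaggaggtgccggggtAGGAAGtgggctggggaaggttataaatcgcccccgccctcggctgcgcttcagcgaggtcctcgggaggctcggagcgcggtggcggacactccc
Erg: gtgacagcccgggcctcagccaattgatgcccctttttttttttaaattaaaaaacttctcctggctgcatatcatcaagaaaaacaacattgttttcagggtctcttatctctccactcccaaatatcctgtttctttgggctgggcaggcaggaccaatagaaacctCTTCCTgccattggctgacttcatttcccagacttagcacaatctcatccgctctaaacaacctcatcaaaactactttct
Nos3: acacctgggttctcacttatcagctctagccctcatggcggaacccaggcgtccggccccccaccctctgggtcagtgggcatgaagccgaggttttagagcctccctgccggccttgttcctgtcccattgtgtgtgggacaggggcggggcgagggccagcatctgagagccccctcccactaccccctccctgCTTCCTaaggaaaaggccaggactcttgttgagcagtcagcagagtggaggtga
Adgrl4: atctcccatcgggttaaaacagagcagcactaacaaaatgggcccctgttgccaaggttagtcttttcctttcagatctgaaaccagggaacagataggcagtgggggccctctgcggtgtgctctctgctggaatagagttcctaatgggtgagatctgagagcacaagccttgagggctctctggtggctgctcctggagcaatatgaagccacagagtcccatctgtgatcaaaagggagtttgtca
Of the 19 endothelial genes tested, 13 had a promoter in the RefSeq table, and 9 of these 13 held a match on either strand, beside 29.5% of all 33469 promoters of the same length. A gene of the list counted if any of its promoters in the table held a match, whereas the percentage counts single promoters. These shares are therefore unlike measures. The interferon-induced gene Ifi27 is shown because it had the smallest unadjusted p of the interferon-response genes. Its upstream bases (chr6:128355062-128355311, plus strand) hold 2 places where GAAA is followed by any 2 bases and a further GAAA, a pattern of the interferon-stimulated response element, 74 and 159 bases from the start and in capitals.
Ifi27: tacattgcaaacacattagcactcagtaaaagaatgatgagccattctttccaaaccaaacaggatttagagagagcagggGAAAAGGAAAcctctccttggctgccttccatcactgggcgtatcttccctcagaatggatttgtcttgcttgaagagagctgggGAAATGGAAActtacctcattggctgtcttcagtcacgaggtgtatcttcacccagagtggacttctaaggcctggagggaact
This pattern, searched on both strands, was present in 7 of the 9 interferon-response genes with a promoter in the table (13 were tested), and in 3.41% of all promoters. Here too the list was counted by gene and the percentage by promoter. A match describes the letters of a window and was not tested for binding.

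Of the 13624 genes tested, 0 passed an adjusted p of 0.05 in limma, and the smallest adjusted p was 0.204. At an unadjusted p under 0.05, 1614 genes (11.8% of those tested) lay lower in the experimental arrays and 293 (2.15%) lay higher. The values of both experimental arrays lay below those of all 3 controls for 2491 genes (18.3%) and above them for 430 (3.16%). In all, 9325 genes (68.4%) had a difference below 0 and 4299 (31.6%) above 0, and the median over all genes was -0.13. Each group of genes below is to be read against that median and these shares. In the values as deposited, without the further scaling, that median was 0.0003 and the counts at an unadjusted p under 0.05 were 307 lower (2.25%) and 332 higher (2.44%). The excess of lower over higher genes among all genes was thus not present on that scale. Nothing below passed the test across all genes with the 5 arrays, and unadjusted p-values are given to rank the genes.

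**Figure D1:**
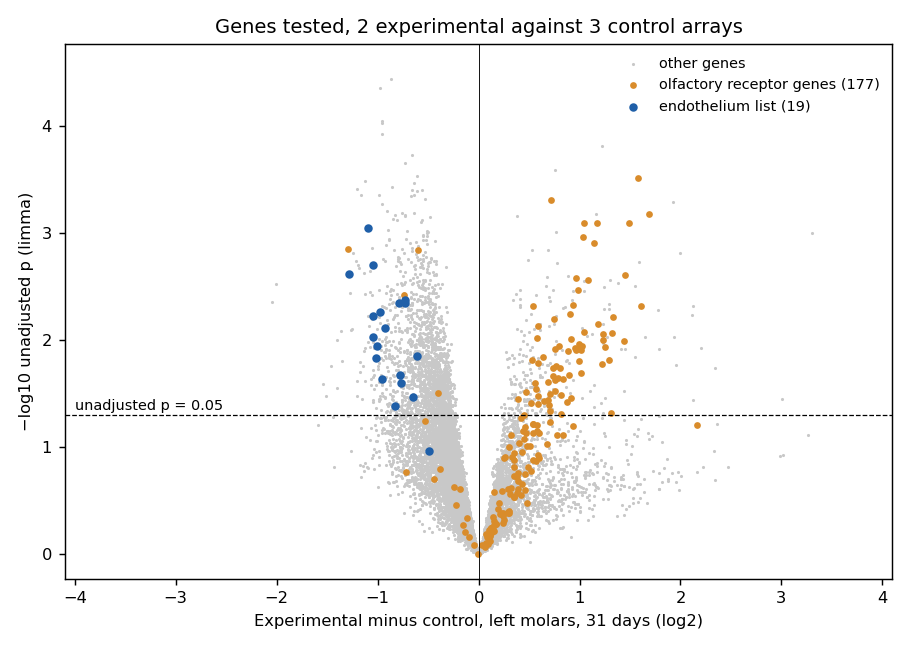
Each point is a gene, with its experimental minus control difference in left molars at 31 days on the horizontal axis (log2) and the negative log10 of its unadjusted limma p on the vertical axis. The 19 endothelial genes (blue) all lie left of 0, and 160 of the 177 olfactory receptor genes (orange) lie right of 0.

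Of the arrays compared, 3 stood apart. E3 had the highest deposited median of all 23 arrays, 6.77, where the other arrays fell in a higher set (E1 6.51, C1 6.64 and C3 6.56 among them) and a lower set that held C2 (6.14). After scaling, the median deviation of E3 from the typical array was -0.20, where the other 22 arrays lay between -0.04 and 0.03. Olfactory receptor genes, a family used mainly by the nose, averaged 7.17 in E3, against 6.80 in the next highest array of the series. In E1 their mean was 6.44, within the range of the left controls of that age (C1 6.48, C3 6.30 and C2 6.15). Of the 177 tested, 71 lay higher in the experimental arrays at an unadjusted p under 0.05, where 2.15% of all genes did. E1 had the lowest mean of the endothelial genes of all 23 arrays and the highest mean of the oral epithelium genes among the 5. C2 had the lowest epithelial mean of the 5 and the highest endothelial mean of all 23. Without E3, 2 genes (0.0147%) were called in limma, Bpifa5 and Extl1. Without E1, when E3 alone stood for the experimental animals, 845 were called (6.2% of those tested), 184 higher and 661 lower. A lone array is assumed in the fit to vary like the other groups. Without C1, C2 or C3 the count was 0.

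Of 24 endothelial markers, 19 had a probe set of their own and all 19 passed the filter on low levels, while Pecam1, Kdr, Eng, Ptprb and Ecscr were not analysed here. All 19 endothelial genes with a value lay lower in the experimental left molars, between -1.29 and -0.49, with a median of -0.93 beside -0.13 for all genes. Of the 19, 18 had an unadjusted p under 0.05, where 11.8% of all genes did, and for 15 the 2 groups did not overlap, where 18.3% of all genes did not. Averaged over the 19 genes, the level was 7.73 in E1 and 8.12 in E3, against 8.32 in C1, 8.70 in C3 and 9.40 in C2. Both experimental arrays lay below every control, by a margin that is small for E3 against C1 and wide for either against C2. None of the 19 passed the adjusted test, in which their smallest adjusted p was 0.231.

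**Figure D2:**
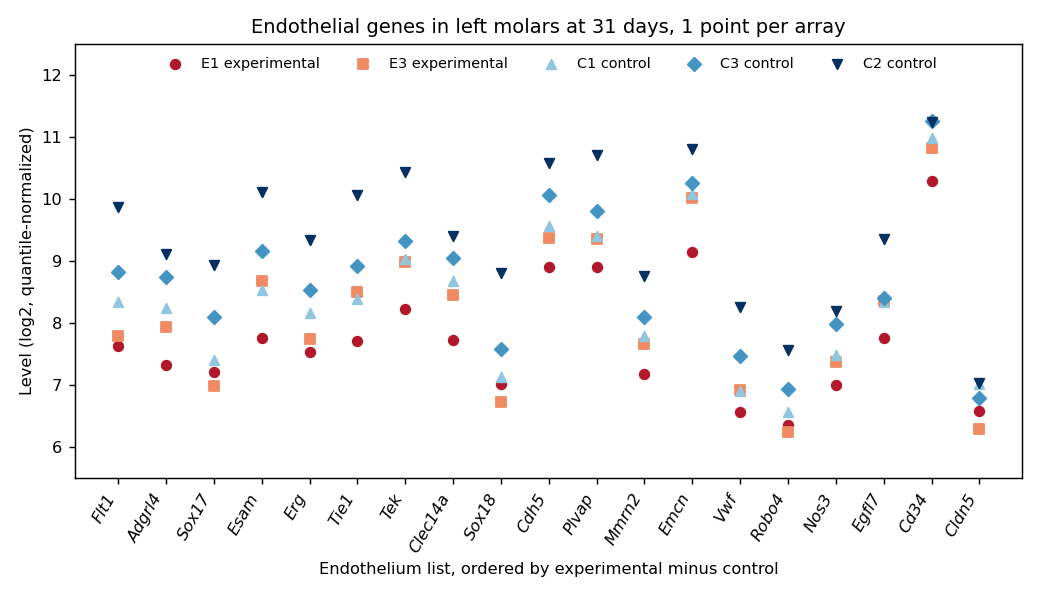
Level of each endothelial gene (log2) in the 5 left-molar arrays at 31 days, ordered from the most negative experimental minus control difference, with 1 symbol per array. The experimental arrays (red circles and orange squares) lie under the controls (blue) for 15 of the 19 genes, and C2 (dark triangles) is the highest or close to the highest throughout.

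Flt1, a receptor for vascular endothelial growth factor (probe set 17671570), was at 7.64 in E1 and 7.79 in E3, and at 8.35, 9.87 and 8.82 in C1, C2 and C3. The experimental arrays were close together and below all controls, and among the controls C2 was highest. The difference was -1.29 with a standard error of 0.37, or 2.44-fold lower (unadjusted p = 0.00243, limma adjusted p = 0.235). Adgrl4, an adhesion receptor of angiogenic endothelium (probe set 17743485), was at 7.33 and 7.93 against 8.24, 9.12 and 8.75, again without overlap. Its difference was -1.09 with a standard error of 0.28, the smallest unadjusted p of the list at 0.000904. Erg, the ETS factor that maintains endothelial identity (probe set 17668088), was at 7.53 and 7.74 against 8.17, 9.34 and 8.54, a difference of -1.04. Tek, the angiopoietin receptor, was at 8.23 and 8.99 against 9.04, 10.44 and 9.32, so that E3 and C1 were almost level in that gene, and its difference of -1.01 was -0.63 without C2. Robo4, which stabilises vessels, and Nos3, the endothelial nitric oxide synthase, each differed by -0.73. Cldn5, a tight-junction protein, gave the smallest difference, -0.49, and was the only member without an unadjusted p under 0.05 (0.108).

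Each endothelial gene tested stayed below 0 in every alternative processing tried and with each array left out (17 genes with the filter at the 50th percentile, 19 elsewhere), and the size moved. The median was -0.77 in the values as deposited, where 16 of the 19 had an unadjusted p under 0.05 (2.25% of all genes lower). With scaling and fit on the 5 arrays it was -0.91 with 7 members under 0.05 (4.06% of all genes). It was -0.93 with 9 (4.04%) under the fit alone on them, and -0.56 with 5 (3.97%) with replicate number as a block. Without E1 it was -0.69 with 6 members under 0.05 (19.4% of all genes), without E3 -1.01 with 15 (7.37%), and without C2 -0.59 with 10 (7.19%). C2 was the highest of the controls in the mean of the list. With both E1 and C2 left out the median was -0.41 beside -0.22 for all genes, and 4 of the 19 had an unadjusted p under 0.05, where 16.6% of all genes did. Markers of the neighbouring oral epithelium moved the other way: their mean was 11.75 in E1, 9.77 in E3, 11 in C1, 7.90 in C2 and 10.02 in C3. Among E3, C1 and C3, E3 had both the lowest endothelial and the lowest epithelial mean. The part of the epithelial signal in the endothelial result of all 5 arrays was not tested.

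Genes of the cells and matrix around the vessels lay lower as well. All 14 basement membrane genes tested were below 0, where 68.4% of all genes were, with a median of -0.68. Of these, 7 had an unadjusted p under 0.05, where 11.8% of all genes lay lower at that level. Col15a1, a collagen of the basement membrane zone, was at 7.55 and 7.91 against 8.24, 9.04 and 8.64 (difference -0.92, standard error 0.24). Col4a2, a chain of the type IV collagen network, differed by -0.87, and Nid1, the linker protein nidogen, by -1.15, also without overlap between the groups. The difference of Col4a2 was -0.57 without E1. The median of this list was -0.40 without E1 and -0.89 without E3, beside -0.23 and -0.03 for all genes in those settings. Of 12 pericyte and smooth muscle genes, 10 lay lower and 5 had an unadjusted p under 0.05 (68.4% and 11.8% of all genes). Their median was -0.59. Mcam, a surface protein of pericytes and endothelium, differed by -0.98, Rgs5, a pericyte regulator of G-protein signalling, by -0.95, and the contractile genes Myl9 and Tagln by -1.36 and -1.51. Tagln was at 7.67 in E1 and 9.20 in E3 against 9.42, 9.46 and 10.85 in C1, C2 and C3, so that most of its difference came from E1. Without E1 the differences of Tagln and Rgs5 were -0.82 and -0.59, and the pericyte median was -0.35 beside -0.23 for all genes.

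Among 27 genes of angiogenic signalling, 23 lay lower and 10 had an unadjusted p under 0.05 (68.4% and 11.8% of all genes). Their median was -0.38. It was -0.40 without E1 and -0.65 without E3, beside -0.23 and -0.03 for all genes in those settings. This list shares Flt1 and other receptors with the endothelial list. Pdgfb, the ligand by which endothelium recruits pericytes, was at 7.17 and 6.69 against 7.57, 8.18 and 7.85, a difference of -0.95 with a standard error of 0.23 (unadjusted p = 0.000536, limma adjusted p = 0.231). E3 was the lower of the experimental arrays here, and the difference was -1.23 without E1 and -0.66 without E3. Flt4, the receptor for vascular endothelial growth factor C on lymphatic and growing vessels, was at 7.05 and 6.81 against 7.38, 7.67 and 7.92, a difference of -0.73. Of the 7 lymphatic markers tested, 5 lay lower, of which Flt4 alone had an unadjusted p under 0.05, and their median of -0.18 was close to that of all genes. Acvrl1, an endothelial receptor for bone morphogenetic proteins, differed by -0.84, and by -0.48 without C2.

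**Figure D3:**
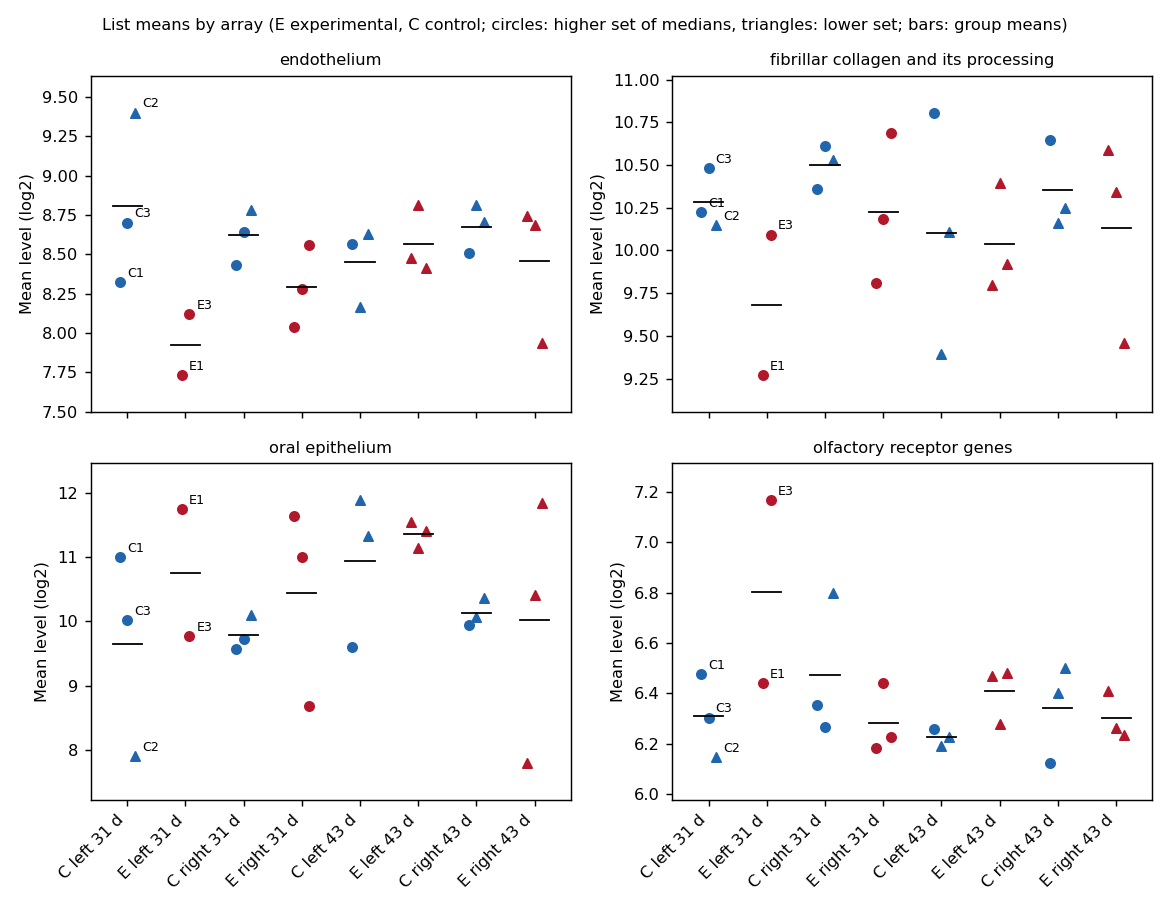
Mean level (log2) of 4 gene lists in each of the 23 arrays, by condition, side and age, with group means as bars and the 5 left arrays of 31 days named. E1 and E3 lie below the left controls of their age for endothelium, E1 alone is far below them for collagen, the epithelial means of the 5 named arrays run from 7.90 (C2) to 11.75 (E1), and E3 is the highest array for olfactory receptor genes.

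Several genes outside the vessel lists had smaller p-values than any endothelial gene. Dipk2b, which encodes a secreted kinase-like protein, was at 6.05 and 5.74 against 6.45, 7.06 and 6.76 (difference -0.87, standard error 0.16, unadjusted p = 3.67e-05, limma adjusted p = 0.204). Zfp853, a zinc finger gene, was at 6.31 and 6.38 against 7.01, 7.43 and 7.50, with a difference of -0.98. In both genes every control lay above both experimental arrays. Ifi27, an interferon-induced mitochondrial protein, was at 7.72 in both E1 and E3 and at 8.40, 8.85 and 8.83 in C1, C2 and C3. Its difference was -0.96 with a standard error of 0.19, and it ranged from -1.09 to -0.89 with each array left out in turn. Rab26, a small GTPase of secretory granules, differed by -0.96, and Tfpi, the inhibitor of the tissue factor pathway made largely by endothelium, by -0.95. Gng11, a G-protein gamma subunit, differed by -1.20, and Gadd45g, a growth arrest and stress gene, by -1.13. The transcription factor Hes7 (-0.66), the ubiquitin ligase Rnf122 (-0.73), the neurotrophic ligand Nrtn (-0.61) and the complement protease Cfd (-0.86) were also among the leading lower genes. In Tfpi, Gng11 and Gadd45g E3 was lower than E1 and their differences were -0.64, -0.86 and -0.66 without E3. Without E1, with E3 as the only experimental array, they were -1.28, -1.54 and -1.58. The genes of this paragraph were picked for small p-values to which E3 contributed, so that setting is not a separate check of them.

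Of 13 interferon-response genes tested, Ifi27 among them, 12 lay lower, where 68.4% of all genes did. Ifi27 was 1 of 3 with an unadjusted p under 0.05 (11.8% of all genes lower), and the median was -0.40. Ifit2, an antiviral RNA-binding protein, was at 7.49 and 7.23 against 7.59, 8.44 and 8.11, a difference of -0.68. Ifit1, its neighbour in function, had the largest difference of the list, -1.43, which rested on C3: the levels were 5.05 and 5.27 against 5.35, 5.70 and 8.71, and without C3 the difference was -0.61.

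The collagen and ligament matrix genes lay lower in E1 far more than in E3. Of 30 genes for fibrillar collagens and their processing, 29 were below 0 with a median of -0.66, but only 3 had an unadjusted p under 0.05, a share of the list no larger than that of all genes (11.8%). Their mean was 9.27 in E1 and 10.09 in E3, against 10.15 to 10.48 in the controls. The median was -0.28 without E1, close to the -0.23 of all genes in that setting, and -1.03 without E3. Col6a2 and Col6a3, chains of the microfibrillar type VI collagen, differed by -0.87 and -0.95, and Col6a3 stood at 8.78 in E1 and 10.09 in E3 against 10.25, 10.44 and 10.40. Without E1 these differences were -0.53 and -0.39. Col1a1 differed by -0.24 with a standard error of 0.16, and its groups overlapped. It was -0.08 without E1.

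Of 18 ligament fibroblast genes, 17 lay lower and 3 had an unadjusted p under 0.05 (68.4% and 11.8% of all genes). Their median was -0.55. Fmod, the collagen-binding proteoglycan fibromodulin, was low in both experimental arrays: 7.92 in E1 and 7.89 in E3 against 9.86, 9.18 and 10.73 in C1, C2 and C3. The difference was -2.01 with a standard error of 0.59, or 4.03-fold lower (unadjusted p = 0.00303, limma adjusted p = 0.235), and it lay between -2.49 and -1.55 with each array left out. Ccn3, a matricellular protein, was at 6.47 and 6.92 against 7.17, 8.31 and 8.38, a difference of -1.27, and Mkx, the transcription factor mohawk of tendon and ligament, differed by -0.71. Aspn was at 10.17 in E1 but 11.93 in E3, within the range of the controls (12.10, 11.88 and 12.38), and its difference of -1.08 was -0.33 without E1. The median of the list was -0.11 without E1 and -0.93 without E3, so that the size of the list's difference depended on which experimental array was used.

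Of 19 elastic fibre and small leucine-rich matrix genes, 18 lay lower, 4 with an unadjusted p under 0.05 (68.4% and 11.8% of all genes). Their median was -0.59. Efemp1, the elastic fibre protein fibulin-3, was at 8.21 and 7.68 against 8.22, 8.55 and 8.92 (difference -0.62, and -0.38 without E3), and Ltbp2, a microfibril protein that binds elastin fibres, was at 6.09 and 6.30 against 6.53, 6.90 and 6.87 (difference -0.59). Of 26 matrix proteases and inhibitors, 24 lay lower with a median of -0.62, and 3 had an unadjusted p under 0.05, a share no larger than that of all genes (11.8%). Without E1 the median was -0.27, close to that of all genes in that setting (-0.23). Mmp9, the gelatinase abundant in osteoclasts, was at 9.21 and 10.67 against 11.42, 10.99 and 11.68, a difference of -1.46. Timp3, an inhibitor bound to the matrix, differed by -0.95. Both differences were smaller without E1, at -0.88 for Mmp9 and -0.63 for Timp3.

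The bone-lining genes gave the same split between the experimental arrays. Of 27 genes of osteoblasts, osteocytes and cementoblasts, 25 lay lower with a median of -0.45, and 3 had an unadjusted p under 0.05, a share no larger than that of all genes (11.8%). Without E1 the median was -0.10, above the -0.23 of all genes in that setting. Ankh, the exporter of pyrophosphate and ATP that restrains mineral deposition, was little moved by any single array: it was at 9.11 and 9.19 against 9.63, 9.79 and 9.70, a difference of -0.57 with a standard error of 0.14 (unadjusted p = 0.000788), and between -0.58 and -0.56 with each array left out. Panx3, a channel protein of osteoblasts, was at 6.74 and 6.62 against 7.73, 7.93 and 7.71, a difference of -1.13, again without overlap. Alpl, the alkaline phosphatase of mineralising cells, and Pth1r, the receptor for parathyroid hormone, differed by -0.87 and -0.97, and by -0.48 and -0.51 without E1.

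Of 8 osteoclast genes, 7 lay lower and 2 had an unadjusted p under 0.05 (68.4% and 11.8% of all genes). Their median was -0.86. Acp5, Dcstamp, Ocstamp, Nfatc1 and Itgb3 had no probe set of their own, and Calcr fell below the filter. Clcn7, the chloride-proton exchanger that helps to acidify the resorption space, was at 7.60 and 7.31 against 8.03, 8.58 and 8.42, a difference of -0.89 with a standard error of 0.23 (unadjusted p = 0.00117). Clcn7 is also present in lysosomes of other cells. Atp6v0d2, a proton pump subunit of osteoclasts, was at 5.74 and 6.98 against 7.92, 7.02 and 8.40, where E3 and C2 were level. Ctsk, the collagen-degrading cathepsin K, was at 10.57 in E1 and 12.15 in E3 against 12.31, 11.79 and 12.48, and its difference of -0.84 was -0.20 without E1. The median of the osteoclast genes was -0.35 without E1. Of 9 genes that regulate osteoclasts, 7 lay lower with a median of -0.52. Both the osteoclast-inducing ligand Tnfsf11 (RANKL) and its decoy receptor Tnfrsf11b (osteoprotegerin) were among them, at -0.62 and -0.88, with no overlap between the groups for either.

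The signalling lists below lay lower, with medians between -0.54 and -0.23. Their counts stand beside 68.4% of all genes lower and 11.8% lower at an unadjusted p under 0.05. Medians of these lists with single arrays left out are not given here. Of 33 genes of the TGF-beta and BMP pathways, 29 lay lower, 7 with an unadjusted p under 0.05, and the median was -0.30. Bmp2, a bone-inducing ligand, was at 7.25 and 7.75 against 8.19, 7.84 and 8.20, a difference of -0.59. Of 25 genes of IGF, FGF and PDGF signalling, 23 lay lower and 6 had an unadjusted p under 0.05, with a median of -0.54. Igfbp3, the main carrier of insulin-like growth factors, was at 10.04 and 10.10 against 10.43, 10.82 and 11.11, a difference of -0.70 with a standard error of 0.22. Of 16 stretch-responsive and YAP target genes, 13 lay lower and 7 had an unadjusted p under 0.05, with a median of -0.34. Wwtr1, which encodes the YAP partner TAZ, differed by -0.79 without overlap, while the matricellular target Ccn1 differed by -1.16 and by -0.64 without E1. Of 38 genes of Wnt signalling, 29 lay lower with a median of -0.23, and 3 had an unadjusted p under 0.05, a smaller share than among all genes. Of 18 genes of the unfolded protein response, 17 lay lower and 4 had an unadjusted p under 0.05, yet the median of -0.11 was no lower than that of all genes. Its leading members were Hyou1, a chaperone of the endoplasmic reticulum (-0.46), and the stress transcription factor Atf4 (-0.38). In the circadian clock list of 14 genes, 8 lay lower and 6 higher, with Per2, a repressor of the clock, at -0.49 and Ciart, a repressor of its outputs, at 0.42. Lists of inflammation, hypoxia and glycolysis, epithelial rests, and Schwann cells and nerve had medians of -0.02, 0.0018, -0.03 and -0.11. Those of early-response, adipocyte, chondrocyte and odontoblast genes were -0.16, -0.15, -0.28 and -0.49.

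**Figure D4:**
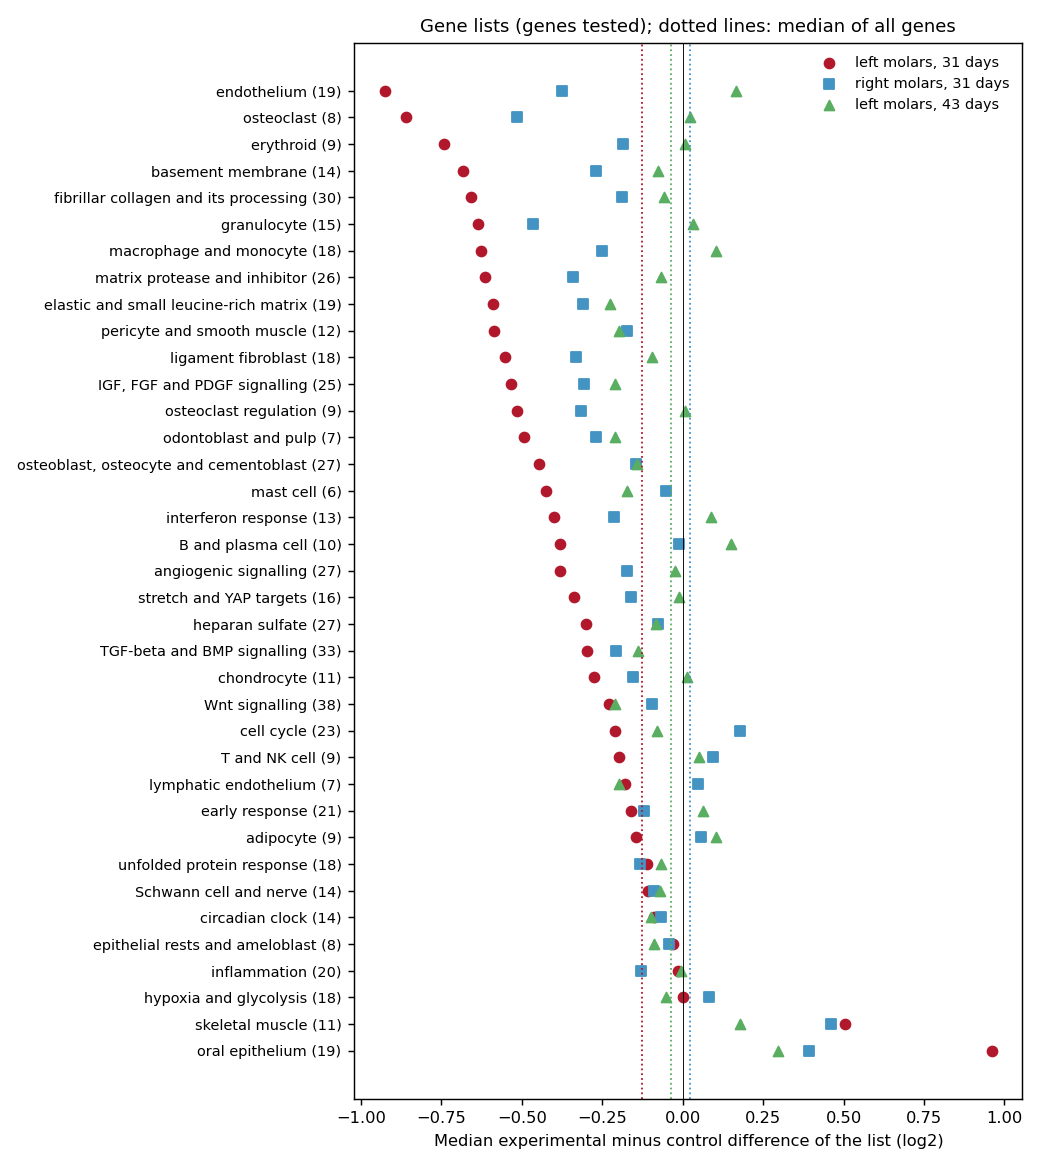
Median experimental minus control difference (log2) of each of the 37 gene lists, with the number of genes tested in brackets, in left molars at 31 days (red circles), right molars at 31 days (blue squares) and left molars at 43 days (green triangles). Endothelium has the most negative median in left molars at 31 days (-0.93), against -0.38 in right molars and 0.17 at 43 days.

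Immune and blood cell genes divided by whether they rested on C2. Of 18 macrophage and monocyte genes, 16 lay lower and 4 had an unadjusted p under 0.05 (68.4% and 11.8% of all genes). Their median was -0.63. C1qb and C1qc, subunits of complement C1q made by resident macrophages, were close in the experimental arrays (7.50 and 7.54 for C1qb) and lay below all controls (8.15, 8.54 and 8.79), with differences of -0.99 and -0.87. Mrc1, the mannose receptor of tissue macrophages, differed by -0.88. The macrophage median was -0.44 without C2 and -0.39 without E1. Of 11 mast cell markers, 6 were tested. Cma1 had no probe set of its own, and Mcpt1, Mcpt4, Ms4a2 and Fcer1a fell below the filter. All 6 lay lower and 3 had an unadjusted p under 0.05 (68.4% and 11.8% of all genes). Kit, the receptor for stem cell factor, was at 6.15 and 5.96 against 6.69, 7.14 and 6.78. The 15 granulocyte genes all lay lower, with a median of -0.64, and 1 gene had an unadjusted p under 0.05 (11.8% of all genes lower). That gene was Lcn2, the neutrophil lipocalin, at 5.70 and 6.84 against 7.10, 10.02 and 7.81, a difference of -2.05 that was -1.12 without C2. C2 was far above the other arrays in granulocyte genes, with a mean of 9.55 where the other 4 lay between 7.16 and 8.16, and the median of the list was 0.05 without it. The 10 B and plasma cell genes had a median of -0.38, which was 0.16 without C2, and the 9 erythroid genes had a median of -0.74, which was -0.34 without C2. The T and NK cell list was mixed, with 6 of 9 lower, and its members Cd3d, Cd3e, Cd3g and Cd2 fell below the filter. Lck, the kinase of the T cell receptor, differed by -0.80, by -0.37 without E3 and by -0.50 without C2. The 23 cell-cycle genes had a median of -0.21, which was 0.01 without C2, 0.06 without E3 and -0.44 without E1.

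A few strongly lower genes lay in no list. Fads2, a fatty acid desaturase, was at 7.37 and 8.04 against 8.64, 9.23 and 9.41, a difference of -1.41. Lbp, the lipopolysaccharide-binding protein, differed by -1.54, and Serping1, the C1 inhibitor of complement, by -1.40. For Lbp and Serping1 E1 was the lower experimental array by more than 1, and without E1 their differences were -1.0 and -0.69.

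The lists whose genes lay higher in the experimental arrays were those of adjoining tissues, oral epithelium and skeletal muscle. All 19 oral epithelium genes tested were above 0, where 31.6% of all genes were, with a median of 0.96, but 0 of them had an unadjusted p under 0.05. Krt13, a keratin of the oral lining, was at 14.10 and 12.67 against 13.08, 8.40 and 12.68, and Tgm3, a transglutaminase of cornified epithelium, at 12.75 and 9.80 against 10.81, 5.80 and 8.85. Their differences of 2.16 and 3.02 were 0.62 and 1.71 without C2. In the means given above the groups overlapped, and C2 was far below the rest. The median was 0.31 without C2, 0.41 without E1, 1.62 without E3, and -0.30 without both E1 and C2. The endothelial and collagen means were lowest where the epithelial mean was highest (E1), and the endothelial mean was highest where the epithelial mean was lowest (C2). The part of the epithelial signal in the matrix lists was not tested. Of 11 skeletal muscle genes, 9 lay higher with a median of 0.51 and 0 unadjusted p under 0.05. E1 had a mean of 7.33 for this list and the other 4 arrays lay between 6.35 and 6.56. Mb, the oxygen store myoglobin, was at 9.02 in E1 and 7.05 in E3, against 6.80 to 7.08 in the controls, and Ttn, the sarcomere protein titin, was at 6.95 and 6.25 against 5.80, 5.59 and 5.80. Bpifa5, a secreted protein of the palate and lung family, and Sprr4, a cornified envelope protein, also rested on E1: Bpifa5 was at 9.85 in E1, 6.18 in E3 and 5.91 to 6.09 in the controls. Without E1 the differences of Bpifa5, Sprr4 and Mb, which were 1.94, 1.45 and 1.03, were 0.24, 0.62 and 0.39.

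Extl1, which encodes a glycosyltransferase of heparan sulfate synthesis, lay higher in both experimental arrays. It was at 8.23 and 6.86 against 6.60, 6.10 and 6.44. The difference was 1.16 with a standard error of 0.28, or 2.24-fold higher (unadjusted p = 0.000668, limma adjusted p = 0.231). E1 was well above E3, and the difference was 0.53 without E1 and 1.80 without E3. Of the 27 heparan sulfate genes tested, 18 lay lower, a share no larger than that of all genes (68.4%). Their median of -0.30 was -0.05 without C3, where 15 of the 27 lay lower. Ext1, which polymerises the chain, was at 8.94 and 8.98 against 9.43, 9.01 and 9.70 (difference -0.44, and -0.28 without C3), and Ndst3, a sulfotransferase of the chain, was at 6.11 and 6.16 against 5.96, 5.52 and 5.40 (difference 0.52). These 3 were the only members of the list with an unadjusted p under 0.05.

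Other genes that lay higher in both experimental arrays had varied roles. Of the 430 genes that lay higher without overlap, 217 were in the lowest quartile of mean level and 34 in the highest. For the 2491 that lay lower without overlap, these counts were 635 and 705. Acot12, an acetyl-CoA thioesterase, was at 6.28 and 6.75 against 5.92, 5.41 and 5.92, a difference of 0.76 with a standard error of 0.17. Its mean over all arrays, 5.91, was close to the filter level of 5.81. Tasp1, a protease that processes nuclear proteins, and Cbs, an enzyme of homocysteine metabolism, differed by 0.76 and 0.69. The ribosomal protein gene Rps15, the ribosome methyltransferase Bud23 and the tRNA methyltransferase Trmt10b differed by 0.38, 0.53 and 0.48, each without overlap. Atp5hl1, named in the annotation as like a subunit of ATP synthase, was at 7.51 and 8.41 against 7.05, 6.66 and 6.59, with a difference of 1.22 (0.81 without E3) and the smallest unadjusted p of the named higher genes, 0.000155. Dlg5l14, Dlg5l15 and Potem, members of multicopy families, differed by 2.20, 1.99 and 1.78, with E3 the highest array for each. Their values are uncertain, since near-identical copies can share probes, and the first was 1.22 without C2, 1.29 without E3 and 3.06 without E1, while Potem was 1.14 without C2 and 0.89 without E3.

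**Figure D5:**
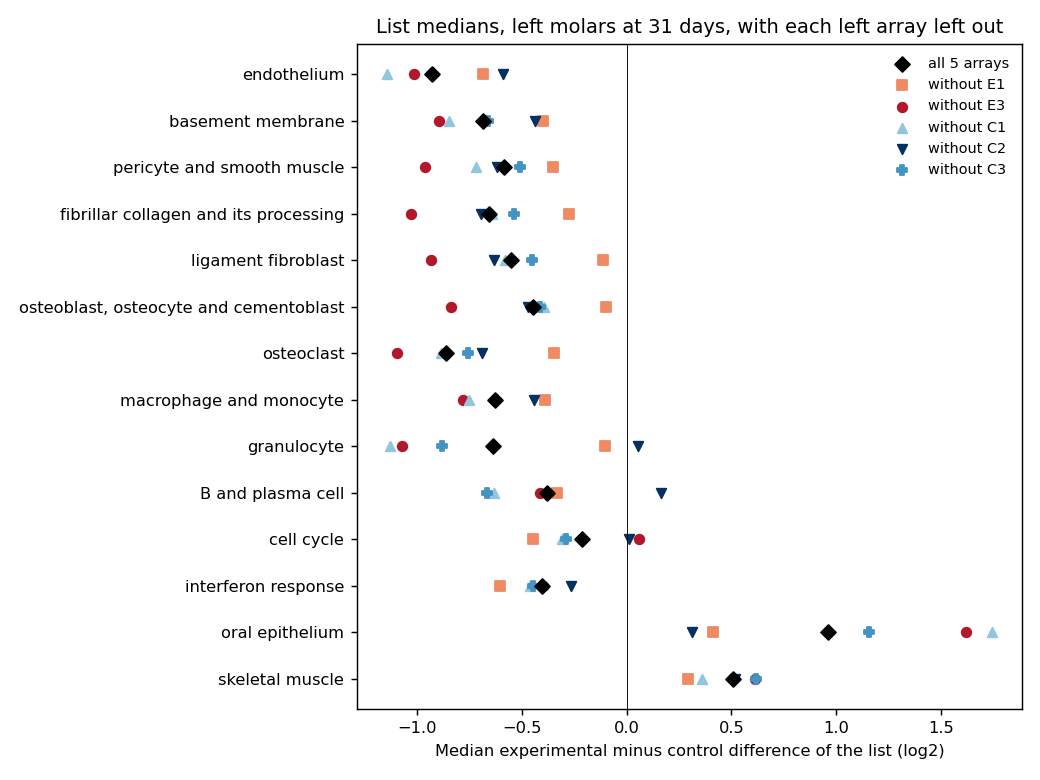
Median experimental minus control difference (log2) of 14 gene lists with all 5 arrays (black diamonds) and with each array left out. The endothelium medians stay between -1.14 and -0.59, while those of ligament fibroblasts range from -0.93 to -0.11 and those of granulocytes and B cells pass 0 without C2.

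The right molars of the same age, from the same animals and 1 further experimental animal, had fewer genes with an unadjusted p under 0.05: 238 lower (1.75%) and 184 higher (1.35%), a median over all genes of 0.02 and a smallest limma adjusted p of 0.197. In them 18 of the 19 endothelial genes also lay lower, 3 with an unadjusted p under 0.05. Of all 13624 genes, 6079 lay lower in right molars. The endothelial median was -0.38, with means of 8.04, 8.28 and 8.56 in E1, E2 and E3 and of 8.43, 8.78 and 8.64 in C1, C2 and C3, so that the groups overlapped in the mean. The left minus right difference of the condition effect was tested across all genes. It called 0 genes (smallest limma adjusted p 0.314), and at an unadjusted p under 0.05 it gave 858 genes more negative in left molars (6.3%) and 238 more positive (1.75%). None of the 19 endothelial genes was among the 858 or the 238, and their median difference between sides was -0.59.

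Panx3 had the smallest p of the named genes in this test. In right molars it was higher in the experimental animals, at 8.76, 9.24 and 10.07 in E1, E2 and E3 against 7.55, 7.79 and 7.87 in C1, C2 and C3, while in left molars it was lower. The effect was 1.62 in right and -1.13 in left molars, a difference of -2.75 with a standard error of 0.54 (unadjusted p = 7.64e-05, limma adjusted p = 0.314). Flt4 was at 7.42 to 7.57 in the experimental and 7.01 to 7.51 in the control right molars, an effect of 0.28, and its difference between sides was -1.01 (unadjusted p = 0.000764). Cfd and Dipk2b had effects of 0.20 and -0.01 in right molars, and differences between sides of -1.06 and -0.85. Fmod, in contrast, was lower in the experimental animals on both sides: in right molars it was at 7.94, 8.52 and 8.85 against 10.33, 11.25 and 10.10, an effect of -2.12, and the difference between sides was 0.11 with a standard error of 0.69. Ccn3 was like it, with effects of -1.27 in left and -1.28 in right molars. Igfbp3 gave -0.70 and -0.75, and Efemp1 -0.62 and -1.04.

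In left molars at 43 days, from other animals, 156 genes lay lower (1.15%) and 75 higher (0.55%) at an unadjusted p under 0.05, and the smallest limma adjusted p was 1. The endothelial means there were 8.48, 8.81 and 8.42 in the experimental and 8.57, 8.16 and 8.63 in the control animals, with a median difference of 0.17. The difference between the effects at 31 and 43 days called 0 genes (smallest limma adjusted p 0.156), with 576 genes more negative at 31 days (4.23%) and 145 more positive (1.06%) at an unadjusted p under 0.05. Of the 19 endothelial genes, 14 were among those more negative at 31 days, and their median difference between ages was -1.04. For Adgrl4 the effect was 0.38 at 43 days, and the difference between ages was -1.47 with a standard error of 0.37 (unadjusted p = 0.000885, limma adjusted p = 0.91). For Ifi27 the effect was 0.17 at 43 days and the difference between ages -1.13. Fmod had an effect of -0.08 at 43 days, where its controls spread from 8.86 to 11.26, and its difference between ages was -1.94. Of the 6 arrays of left molars at 43 days, all except C4 came from the lower set of array medians, and at 31 days only C2 did, so that age and array set largely coincide.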

How the data were processed

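Periodontal ligament of the left and right lower first molars was hybridised to whole-transcript arrays after labelling of 200 ng of total RNA, per the labels' protocols. The values are the authors' deposited log2 levels of 36685 probe sets in 23 arrays; the submitters' processing notes name Partek and RMA, and versions are not given in the sources used here. The array background correction was therefore the authors' own, and the number of arrays limits the precision.

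The deposited medians fell into 2 sets of arrays, so the values were quantile-normalized between all 23 arrays (limma 3.58.1 in R 4.3.3). Of the probe sets, 18511 carried 1 gene symbol in the platform annotation, 575 carried several and were not used, and 17599 were not listed; 18394 matched the rat assembly GRCr8 by Entrez identifier. The probe set with the highest mean stood for each of 18166 genes, and genes below the 25th percentile of the mean, 5.81, were dropped, which left 13624. Limma fitted 8 group means (condition, side and age) over all arrays, with the animal as a random block (correlation 0.258) and empirical Bayes variances on 15 residual and 3.19 prior degrees of freedom, followed by Benjamini-Hochberg adjustment over all genes tested. Because of the animal block a fitted difference can depart from the difference of the group means, by a median of 0.00854 and at most 0.333. The fit was run on simulated data with the same spread in every array and no outlying array. That run does not cover arrays such as E3. Replicates are separate animals.

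The 37 gene lists and the comparison were chosen with earlier results of these data known. Lists are described by counts and medians only. Genes were named by rule, and the text describes fewer than it allows: per direction the 12 with the smallest unadjusted p and the 10 with the largest difference among those without overlap, up to 5 leading members and the extremes of each list, and up to 5 per direction for each difference between sides or ages, passing over placeholder loci and receptor families. Col1a1 was named outside the rule, as a check of the tissue. Alternatives covered the scaling, the filter, the probe-set rule, the arrays fitted, the blocks and each array left out; leaving out E3 with C2, and E1 with C2, was added after seeing the data.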

Additional observations from a re-analysis of the deposited data

How the results depend on the processing

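The count of 0 genes called in left molars at 31 days held in limma under the alternatives tried except with the replicate number as a block on the 5 arrays (6 called, among them Fmod, Atp6v0d2 and Tagln), without 1 array (0 to 845; 2 without E3, 845 without E1) and without E1 and C2 (457). Genes higher at an unadjusted p under 0.05 numbered 293, and 84 with scaling and fit on the 5 arrays, 86 with the fit alone on them, 121 within the higher set of arrays, 739 without a filter, 98 with a filter at the 50th percentile, 173 with the replicate block, 172 to 778 without 1 array, 512 without E3 and C2, and 485 without E1 and C2. Genes lower numbered 1614, and 307 as deposited, 553 and 551 on the 5 arrays, 1048 on the 11 left-molar arrays, 809 within the higher set, 541 with the replicate block, 979 to 2645 without 1 array and 624 without E3 and C2. Without a filter 18166 genes were tested, and with the filter at the 50th percentile 9083, against 13624 in the main setting. The genes higher were 4.07%, 1.08% and 2.15% of these. The cause of the changes in the counts was not tested. The difference from right molars called 0 to 601 genes without 1 array (601 without E1) and 509 without E1 and C2; that from left molars at 43 days called 0 throughout. None of the genes named changed sign. All but Col1a1 were picked for small p-values, groups without overlap or extreme differences in these same data, so this is no separate check. Replicate numbers were not used as pairs: deviations correlated at 0.421 for E1 with C1 and -0.041 for E3 with C3, across genes, but those of E1 and E3 mirror each other, so these are not separate checks and whether the numbers pair animals was not settled. With 2 experimental arrays, and E3 set apart by its scale, the precision is low.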
